A study of Mus musculus with 6 samples.

Results

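The variable (V) segments of the T cell receptor alpha and beta chains were followed in RNA-seq libraries of CD8+ T cells from mouse spleen. Members were all identifiers whose GENCODE M21 symbol begins with Trav or Trbv and whose annotated type is not a pseudogene. They came to 113 of the 35458 gene identifiers, with 91 alpha segments (Trav) on chromosome 14 and 22 beta segments (Trbv) on chromosome 6. The annotation holds 130 such segments. The other 17, all Trav, had no value in the data, and 12 of them have a copy of identical coding sequence. The 3 KO libraries came from Cd4creGlut10fl/fl mice, in which Cre driven by Cd4 regulatory sequences acts on floxed alleles of Glut10, the hexose transporter encoded by Slc2a10. The 3 control libraries came from Cd4cre mice, so that both groups carry the Cre transgene. Age, sex, strain and the number of mice behind a library are not given in the labels, so the p-values rest on how far these libraries differ, and that spread may be technical. Lymphoma appears in the series title, while no label states whether any mouse had a tumour.

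Each developing T cell assembles its receptor genes once, joining a V segment to a joining segment (and, in the beta chain, a diversity segment) ahead of a constant region. The V segment encodes most of the variable domain, including the loops that rest on the MHC molecule, and a population of T cells with many receptors therefore expresses many V segments side by side. A bulk library gives the sum over cells, so fewer T cells in a sample and less receptor RNA per T cell cannot be told apart. The share of a segment within its chain takes out the overall level of the chain and is used here as a measure of usage. It measures usage only as far as the reads come from rearranged receptor transcripts, which was not tested. A share is here the FPKM of a segment, fragments per exon length and library total, as a percentage of the FPKM summed over the members of its chain.

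The totals implied by the FPKM steps were 3420291, 14683394 and 3004540 fragments in KO 1, KO 2 and KO 3, and 11840640, 15020132 and 15036282 in control 1, control 2 and control 3. KO 1 and KO 3 were the shallowest libraries and listed the most genes at 1 FPKM or more (18934 and 19268, against 12200 in KO 2 and 12559 to 13713 in the controls). Summed over 11 neutrophil markers, the level was 65.0 to 616 FPKM in the KO libraries, against 419, 15561 and 28746 FPKM in control 1, control 2 and control 3. Summed over 11 T cell markers, among them the CD3 chains and Cd8a, it was 1261 to 2101 FPKM in the KO libraries, against 1321, 417 and 323 FPKM in control 1, control 2 and control 3. Control 2 and control 3 thus stood apart by high neutrophil and low T cell marker levels. The log2 differences of V segment levels that follow are given with and without them, and those of other genes with them only. Of 5 B cell markers, the sum was 41.5 to 70.6 FPKM in the KO libraries and 8.90 to 36.9 FPKM in the controls. The 7 macrophage markers summed to 72.5 to 416 FPKM in KO and 249 to 347 FPKM in control libraries, 5 gamma delta T cell markers to 20.8 to 41.7 FPKM in KO and 8.03 to 58.8 FPKM in control libraries, and 2 invariant natural killer T cell markers to 1.47 to 3.10 FPKM in KO and 0.611 to 1.55 FPKM in control libraries. The part of other cells in the V segment values was not tested.

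The 8 beta segments of highest mean share, and Trbv2, are shown by the last 60 coding bases of the germline segment. Trbv2 ranks lower and was added after its values were seen. The bases were read from the GENCODE M21 transcripts and are shown because this end becomes the start of the third complementarity-determining loop. Capitals mark the codon of the conserved cysteine at which that loop begins.
Trbv16: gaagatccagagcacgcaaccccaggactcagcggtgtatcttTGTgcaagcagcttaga
Trbv12-1: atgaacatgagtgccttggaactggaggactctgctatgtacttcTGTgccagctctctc
Trbv13-2: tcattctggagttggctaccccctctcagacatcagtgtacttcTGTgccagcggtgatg
Trbv12-2: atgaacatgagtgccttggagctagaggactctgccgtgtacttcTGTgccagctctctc
Trbv1: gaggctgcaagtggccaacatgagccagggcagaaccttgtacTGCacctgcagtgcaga
Trbv29: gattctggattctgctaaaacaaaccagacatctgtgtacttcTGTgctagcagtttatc
Trbv14: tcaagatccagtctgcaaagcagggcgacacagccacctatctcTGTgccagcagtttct
Trbv13-3: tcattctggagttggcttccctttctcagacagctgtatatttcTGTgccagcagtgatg
Trbv2: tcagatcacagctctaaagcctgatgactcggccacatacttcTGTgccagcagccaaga
Over whole transcripts, beta segments shared little sequence. Of the 22 Trbv members, 19 shared no 50-base stretch of transcript with another annotated V segment, and none shared a 100-base stretch. Trbv13-2 and Trbv13-3, of the same family, differed at 32 of 340 coding bases (90.6% identical). Alpha segments include near copies. The mouse alpha locus holds a duplicated stretch whose copies carry the letters d and n in their symbols, and coding positions 61 to 260 of 3 Trav5 copies show how close they are. Capitals mark the bases that differ among the 3.
Trav5-4: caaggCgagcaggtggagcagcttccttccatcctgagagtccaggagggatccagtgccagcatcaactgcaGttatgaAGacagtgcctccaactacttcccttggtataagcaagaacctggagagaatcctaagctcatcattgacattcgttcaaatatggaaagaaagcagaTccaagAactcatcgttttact
Trav5d-4: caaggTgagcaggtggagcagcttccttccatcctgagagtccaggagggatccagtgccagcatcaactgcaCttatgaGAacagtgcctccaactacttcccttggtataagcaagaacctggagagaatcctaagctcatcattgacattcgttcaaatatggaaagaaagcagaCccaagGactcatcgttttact
Trav5n-4: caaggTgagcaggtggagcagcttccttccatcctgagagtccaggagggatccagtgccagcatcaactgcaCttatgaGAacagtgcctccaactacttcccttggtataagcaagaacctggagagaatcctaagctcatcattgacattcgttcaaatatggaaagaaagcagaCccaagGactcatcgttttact
Trav5d-4 and Trav5n-4 did not differ at any of 343 coding bases, and Trav5-4 differed from both at 6. Of the 91 Trav members, 49 shared at least 50% of their 50-base stretches with another annotated V segment, and 18 had a copy of identical coding sequence. How the authors' counting treated reads that match several such copies was not given in the sources used here. Values of single Trav copies, and with them the Trav sums, are therefore uncertain.

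Summed over the members, beta segments carried more signal than alpha segments in each library, while 17 annotated Trav and 0 Trbv segments had no value. The FPKM summed over Trbv was 506, 793 and 224 in KO 1, KO 2 and KO 3, and 508, 243 and 185 in control 1, control 2 and control 3. The groups overlapped, with KO 2 highest and control 3 lowest. The log2 sum averaged 8.81 ± 0.923 in KO and 8.15 ± 0.755 in control libraries (SD, n = 3 each). The difference of 0.66 was within the spread of the libraries (exact permutation p = 0.5, adjusted p = 0.75 over 10 summary tests, two-sided; the smallest p that 3 against 3 libraries can give is 0.1). Without control 2 and control 3 it was -0.18, the opposite direction. The level of T cell markers moved with these sums across the controls, and its part in the difference was not tested.

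Trav sums followed the same order within the controls. They were 254, 292 and 142 FPKM in KO 1, KO 2 and KO 3, and 251, 124 and 95.4 FPKM in control 1, control 2 and control 3. KO 1 and KO 2 were above every control and KO 3 lay between control 1 and control 2. On the log2 scale the sum averaged 7.77 ± 0.551 in KO and 7.17 ± 0.720 in control libraries (SD, n = 3 each), a difference of 0.61 (exact permutation p = 0.2, adjusted p = 0.75). Without control 2 and control 3 it was -0.20.

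Set against the constant regions of the same chain, which every rearranged transcript carries, the beta V segments were lowest in KO 3. Trbc1 and Trbc2, the beta constant regions, together had 863, 1278 and 1191 FPKM in KO 1, KO 2 and KO 3, and 785, 349 and 241 FPKM in control 1, control 2 and control 3. The ratio of summed Trbv to these was 0.586, 0.620 and 0.188 in the KO libraries, and 0.647, 0.697 and 0.767 in the controls. Every KO library was below every control, but KO 1 and KO 2 were close to control 1. The log2 ratio averaged -1.29 ± 0.970 in KO and -0.51 ± 0.123 in control libraries (SD, n = 3 each), a difference of -0.78 (exact permutation p = 0.1, the smallest possible, adjusted p = 0.75). Without KO 3 the difference was -0.22. It was -0.66 without control 2 and control 3 and -0.18 without KO 1 and KO 3.

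For the alpha chain, Trac, its constant region, had 314, 452 and 372 FPKM in KO 1, KO 2 and KO 3, and 320, 196 and 108 FPKM in control 1, control 2 and control 3. The ratio of summed Trav to Trac was 0.807, 0.645 and 0.381 in the KO libraries, and 0.784, 0.635 and 0.882 in the controls. KO 3 was again lowest and the groups overlapped. The log2 ratio averaged -0.78 ± 0.555 in KO and -0.40 ± 0.240 in control libraries (SD, n = 3 each), a difference of -0.38 (exact permutation p = 0.5, adjusted p = 0.75), and -0.08 without KO 3. The difference was -0.43 without control 2 and control 3 and -0.24 without KO 1 and KO 3.

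**Figure D1:**
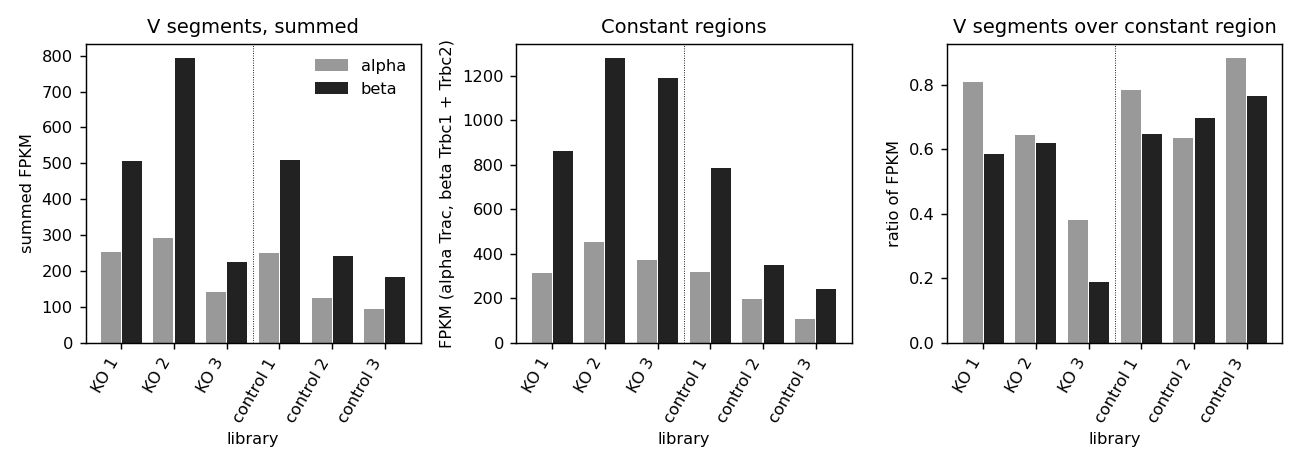
Summed FPKM of V segments, FPKM of the constant regions and their ratio (y axes) in each of the 6 libraries (x axis), with grey bars for alpha and black bars for beta. KO 3 has constant regions no lower than KO 1 but V segment sums of only 142 FPKM (alpha) and 224 FPKM (beta), and ratios of 0.381 and 0.188.

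No member passed the test across genes. Of 13956 genes that reached 1 FPKM in 3 or more libraries, 0 passed limma on log2(FPKM + 1) at an adjusted p of 0.05 (0.0% higher and 0.0% lower). Before adjustment, p was under 0.05 for 744 genes higher in KO (5.33%) and 902 lower (6.46%), and limma-voom on implied reads also called 0. The filter kept 71 members, 52 Trav and 19 Trbv, and the other 42 were too low to test. Of the 71, 3 had an unadjusted p under 0.05, namely Trav6-5, Trav7d-4 and Trav13n-1, all higher in KO. Trav13n-1 passed the filter only through the KO libraries, so its p and its direction are no test of a difference. It is included in the counts of members that follow. Estimates were higher in KO for 57 of the 71 and lower for 14, beside 56.9% higher among all genes tested. With quantile normalization, the split was 43 higher and 28 lower. Their median log2 difference was 0.33, beside 0.10 over all genes tested, and was -0.23 without control 2 and control 3. For Trbv, 17 of 19 estimates were higher, with a median of 0.67, which was -0.11 without control 2 and control 3.

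FPKM did not overlap between the groups for 5 of the 71 members tested, all Trav and all higher in KO, while 6.7% of the genes tested were higher and 9.44% lower in that way. The 5 include Trav13n-1, which passed the filter only through the KO libraries. The same held for Trav3d-3 and Trav7n-6, which were too low to test. Trav7-3 had 6.55, 6.78 and 7.45 FPKM in KO 1, KO 2 and KO 3, and 6.51, 1.32 and 0.83 FPKM in control 1, control 2 and control 3. Control 1 thus lay just below KO 1, and the other 2 controls well below. The log2 difference was 1.32 (SE 0.56, limma adjusted p = 0.417), without control 1 it was 1.94 with an adjusted p of 0.0452, and without control 2 and control 3 it was 0.08 with an adjusted p of 0.997. Trav7-3 differs from its copy Trav7d-3 at 2 of 337 coding bases.

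Trav13n-1, a copy in the duplicated stretch, had 1.77, 1.65 and 2.01 FPKM in the KO libraries, which correspond to 2, 8 and 2 reads, and 0, 0 and 0.201 FPKM in the controls, which correspond to 0, 0 and 1 read. It passed the filter only through the KO libraries, where it is high, so its limma result is no test of a difference and is not given as one here. Trav7d-4 had 3.24, 4.08 and 3.69 FPKM in KO and 1.87, 0.886 and 1.03 FPKM in control libraries, a log2 difference of 1.07 (SE 0.30, limma adjusted p = 0.417), and 0.70 without control 2 and control 3. Both rest on few reads in KO 1 and KO 3, with 5 each for Trav7d-4. Trav6-5 had 6.24, 4.54 and 4.44 FPKM in KO and 3.15, 1.95 and 1.60 FPKM in control libraries (log2 difference 0.93, SE 0.31, limma adjusted p = 0.417), and the difference was 0.54 without control 2 and control 3. Trav10 had 5.04, 3.02 and 4.10 FPKM in KO and 2.91, 2.79 and 0.819 FPKM in control libraries (log2 difference 0.73, SE 0.40, limma adjusted p = 0.423), and the difference was 0.35 without control 2 and control 3 and 0.37 without control 3 alone.

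Shares within a chain remove the overall level. Trbv16 and Trbv12-1 had the highest mean shares among beta segments. Trbv16 took 9.43%, 9.99% and 7.83% of summed Trbv FPKM in KO 1, KO 2 and KO 3, and 7.69%, 9.85% and 9.22% in control 1, control 2 and control 3. The groups overlapped throughout. In FPKM it had 47.7, 79.2 and 17.6 in KO and 39.0, 23.9 and 17.0 in control libraries (log2 difference 0.67, SE 0.58, limma adjusted p = 0.568). This difference ranged over 0.20 (without KO 2) to 1.25 (without KO 3) with 1 library left out, with 0.40 without control 3, and was 0.06 without control 2 and control 3. Trbv12-1 took 11.6%, 11.0% and 8.39% in the KO libraries, and 8.85%, 8.31% and 4.35% in the controls. KO 1 and KO 2 were above every control and KO 3 lay between control 2 and control 1. Its levels were 58.6, 87.5 and 18.8 FPKM in KO and 44.9, 20.2 and 8.04 FPKM in control libraries (log2 difference 1.19, SE 0.76, limma adjusted p = 0.459). It was 0.74 without KO 2, 1.82 without KO 3, 0.59 without control 3 and 0.04 without control 2 and control 3. Its close relative Trbv12-2 took 9.30%, 8.19% and 9.25% in KO and 9.80%, 8.68% and 5.24% in control libraries. Both Trbv12 segments were lowest in control 3, where they took 9.58% together, against 17.0% and 18.6% in the other 2 controls and 17.6% to 20.9% in the KO libraries.

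The 3 segments of the Trbv13 family, known for use in many T cell responses, together took 22.4%, 21.5% and 19.4% of summed Trbv FPKM in KO 1, KO 2 and KO 3, and 20.4%, 20.8% and 21.0% in the controls. Trbv13-2, also used by invariant natural killer T cells, took 8.16%, 7.71% and 12.2% in KO and 8.75%, 8.30% and 6.67% in control libraries. KO 3 stood above the others at 28 of 265 Trbv reads. Trbv13-3 took 7.31%, 6.85% and 3.49% in KO and 6.60%, 5.56% and 7.20% in control libraries, with KO 3 lowest at 8 reads. Trbv13-1 took 6.94%, 6.95% and 3.65% in KO and 5.09%, 6.96% and 7.18% in control libraries, again with KO 3 lowest.

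Trbv1, another beta segment of invariant natural killer T cells, took 8.31%, 5.58% and 6.76% in KO and 6.06%, 7.36% and 7.16% in control libraries. Trbv14 took 4.24%, 5.21% and 8.87% in KO and 9.44%, 5.44% and 5.67% in control libraries, so that 1 library in each group stood high. Trbv19, also found in receptors of mucosal-associated invariant T cells, took 2.76%, 4.13% and 4.72% in KO and 2.61%, 2.18% and 3.24% in control libraries. In none of these did the groups separate.

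Shares did not overlap between the groups for 11 of the 113 members, 6 higher and 5 lower in KO. Over the 327 V segments of all antigen receptor loci, 3.67% were higher and 3.98% lower in that way. Among beta segments there were 3. Trbv29 took 4.25%, 6.04% and 5.04% in KO 1, KO 2 and KO 3, and 6.26%, 9.16% and 8.46% in control 1, control 2 and control 3. Its share averaged 5.11% ± 0.892 in KO and 7.96% ± 1.51 in control libraries (SD, n = 3 each), a difference of -2.85 percentage points. The 95% Wilson interval of its share of Trbv reads was 4.84% to 6.16% in KO 2 and 4.84% to 6.73% in control 1, so the nearest libraries of the 2 groups overlapped within counting error. Without control 2 and control 3 the difference was -1.15 points. In FPKM, Trbv29 had 21.5, 47.8 and 11.3 in KO and 31.8, 22.3 and 15.6 in control libraries, and the groups overlapped.

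Trbv3 took 5.08%, 5.49% and 7.50% in KO and 5.04%, 4.22% and 4.98% in control libraries, 1.28 points higher in KO. Trbv15 took 3.90%, 3.44% and 4.41% in KO and 3.01%, 3.11% and 1.85% in control libraries, 1.26 points higher in KO. The gap between the groups was small for Trbv3, where KO 1 and control 1 nearly coincided. With shares of implied reads in place of FPKM, 9 of the 113 members did not overlap, and Trbv3 and Trav4-3 were no longer among them.

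Trbv2 showed the largest share of a single control library. It took 3.82%, 2.85% and 3.44% in KO 1, KO 2 and KO 3, and 3.44%, 4.01% and 10.9% in control 1, control 2 and control 3. Control 3 held 169 Trbv2 reads of 1117, or 15.1% of its Trbv reads (95% Wilson interval 13.1% to 17.4%), against 4.10% to 5.77% in the other 5 libraries. At the low end, Trbv21, Trbv4 and Trbv5 had at most 9 reads in a library, and the other 19 Trbv segments had a read in all 6.

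**Figure D2:**
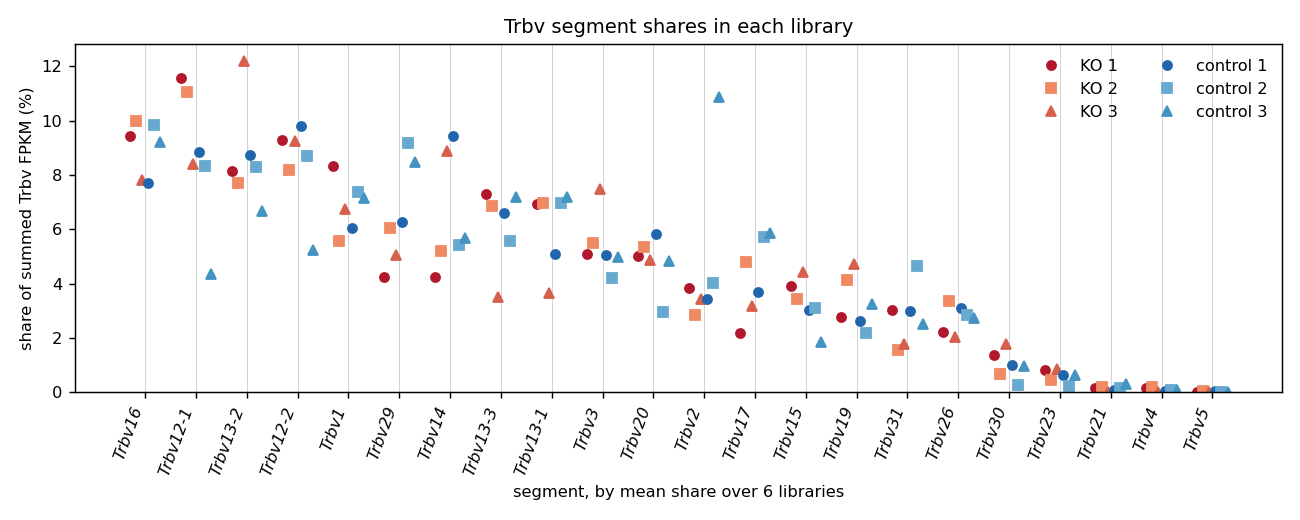
Share of summed Trbv FPKM in percent (y axis) for each of the 22 Trbv segments (x axis, by mean share over 6 libraries), with 1 point per library, red for KO and blue for control. Most segments have red and blue points mixed; Trbv29 has every KO point below every control, and Trbv2 stands at 10.9% in control 3 alone.

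Alpha usage was spread over many more segments. Trav16n and Trav14n-3, both copies in the duplicated stretch, and Trav12-2 had the highest mean shares, and the ends of the first 2 are shown with those of Trav7-3 and Trav9-4, which are described here for their values (capitals as above).
Trav16n: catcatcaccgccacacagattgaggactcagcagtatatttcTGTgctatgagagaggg
Trav14n-3: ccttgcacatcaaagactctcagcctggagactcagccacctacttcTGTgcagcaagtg
Trav7-3: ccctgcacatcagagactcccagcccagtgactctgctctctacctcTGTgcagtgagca
Trav9-4: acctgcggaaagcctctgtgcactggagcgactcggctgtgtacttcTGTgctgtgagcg
Trav16n took 5.0005%, 4.78% and 2.82% of summed Trav FPKM in KO 1, KO 2 and KO 3, and 5.93%, 4.90% and 5.71% in control 1, control 2 and control 3. Trav14n-3 took 6.71%, 3.43% and 4.55% in KO and 4.20%, 4.30% and 5.79% in control libraries. Trav12-2 took 4.06%, 5.70% and 2.75% in KO and 3.72%, 5.52% and 2.62% in control libraries, with the highest value of each group in library 2. The groups overlapped for Trav14n-3 and Trav12-2, and for Trav16n only KO 1 reached the lowest control.

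Trav9-4 had the largest share among alpha segments in KO 3, at 7.12% of summed Trav FPKM. It took 0.876% and 1.18% in KO 1 and KO 2 and 1.54%, 0.812% and 0.176% in the controls. It rested on 12 of 163 reads in KO 3 (7.36%, 95% Wilson interval 4.26% to 12.4%). It is named because it led 1 library, after its values were seen.

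Among alpha segments, shares did not overlap for 4 higher and 4 lower in KO. Trav13-1 took 3.83%, 4.94% and 4.96% in KO and 3.56%, 2.26% and 3.58% in control libraries, 1.44 points higher in KO. Trav7-5 took 2.05%, 2.29% and 2.09% in KO and 2.90%, 4.44% and 3.93% in control libraries, 1.61 points lower on the mean (-1.61). Trav4-4-dv10, a segment that can join the alpha or the delta chain, took 0.958%, 1.16% and 0.649% in KO and 1.87%, 3.70% and 1.93% in control libraries (-1.58 points). Its KO values rest on 3, 18 and 1 reads. The other members of this kind were Trav7d-4, Trav13n-1 and Trav7n-6, higher by 0.912, 0.822 and 0.358 points, and Trav7n-4 and Trav4-3, lower in KO (-0.89 and -0.29 points). Trav7n-6 had 1, 4 and 1 reads in KO and 1, 0 and 0 reads in control libraries.

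By family, Trav7 (13 segments) took 12.3%, 14.4% and 16.6% in KO and 12.8%, 14.9% and 13.8% in control libraries, and Trav14 (7 segments) took 13.0%, 13.3% and 11.0% in KO and 13.3%, 12.6% and 15.6% in control libraries. Of 21 Trav families, 2 had every KO library below every control and 0 above, and of 19 Trbv families 1 lay below and 2 above. No background share was computed for families. The Trbv families counted are Trbv29 (below) and Trbv3 and Trbv15 (above), each of 1 segment, so this repeats the segment shares given earlier. Trav16 (3 segments) took 9.38%, 9.76% and 3.94% in KO and 11.3%, 11.1% and 10.8% in control libraries. Trav4 (5 segments) took 1.80%, 2.46% and 2.42% in KO and 3.67%, 5.88% and 3.49% in control libraries.

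Some near copies stood high in KO 1 and KO 3. Trav5d-4 and Trav5n-4, the identical pair shown above, together held 14 of 334, 2 of 1668 and 18 of 163 Trav reads in KO 1, KO 2 and KO 3, and 2 of 1148, 5 of 723 and 2 of 553 in control 1, control 2 and control 3. KO 1 and KO 3 were high, at 4.19% and 11.0%, and the other 4 libraries were at 0.120% to 0.692%. The 34 Trav segments that share at least 50% of their 100-base stretches with another V segment held 18.6%, 13.2% and 30.1% of Trav reads in KO 1, KO 2 and KO 3, and 13.2%, 9.27% and 9.58% in the controls. The 10 Trav pseudogenes, which are not members, had 96, 28 and 74 reads in the KO libraries, or 28.7, 1.68 and 45.4 per 100 member reads, and 37, 15 and 5 reads in the controls, or 3.22, 2.07 and 0.904 per 100. Most of those in KO 1 and KO 3 came from Trav4-1 and Trav9n-1. Trav4-1 had 53, 2 and 34 reads in KO and 14, 3 and 0 in control libraries, and Trav9n-1 had 28, 0 and 35 in KO and 5, 0 and 0 in control libraries. KO 1 and KO 3, the highest in all 3 measures, are the 2 shallowest libraries, and the part of depth in them was not tested. Among beta pseudogenes, the same measure was 1.48, 0.573 and 2.64 in KO and 0.859, 0.352 and 0.358 in control libraries.

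**Figure D3:**
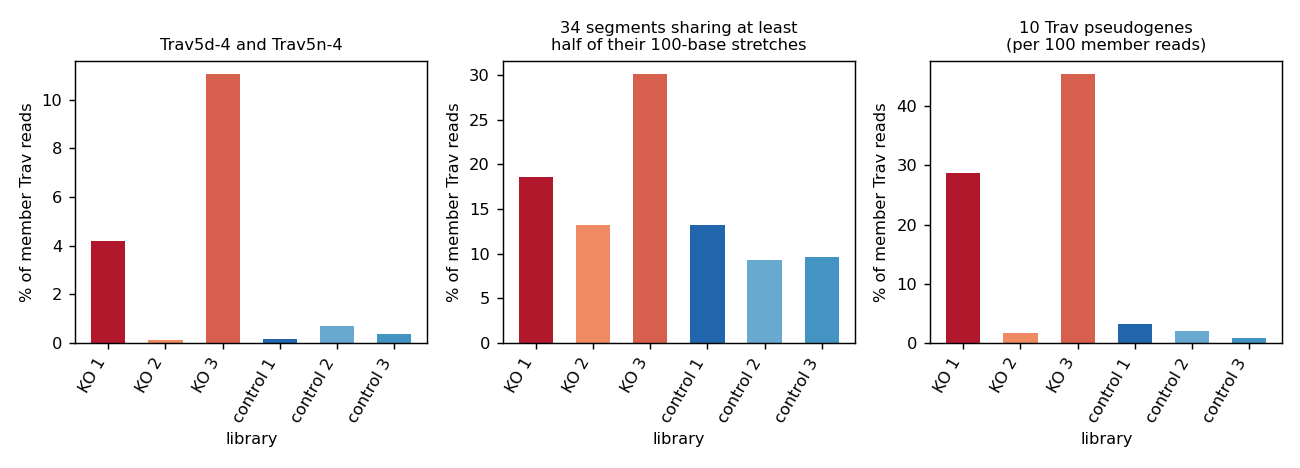
Reads of Trav5d-4 with Trav5n-4, of 34 Trav segments with long shared stretches and of 10 Trav pseudogenes, as a percentage of the Trav reads of each library (y axes), for 3 KO (red) and 3 control (blue) libraries (x axis). KO 1 and KO 3 stand above the other 4 libraries in each panel.

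Copies marked d (24 segments) took 19.5%, 13.5% and 14.9% of summed Trav FPKM in KO 1, KO 2 and KO 3, and 12.3%, 9.76% and 12.3% in the controls. Copies marked n (22 segments) took 19.9%, 17.8% and 19.2% in KO and 20.5%, 16.3% and 20.5% in control libraries. Segments shared with the delta chain (8) took 9.94%, 6.82% and 7.45% in KO and 7.97%, 12.004% and 9.54% in control libraries. Trav1, the segment of mucosal-associated invariant T cells, had 4, 17 and 0 reads in KO and 18, 6 and 4 in control libraries. Trav11d, a relative of the invariant natural killer T cell segment, had 2 reads in control 1 and 0 in each other library. It shares 100% of its 50-base stretches with another annotated V segment, and Trav11, the invariant segment, had no value in the data. The use of that segment can therefore not be read from these values.

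Detection followed the number of reads. Of 91 Trav members, 64, 85 and 49 had at least 1 read in KO 1, KO 2 and KO 3, and 80, 72 and 69 in control 1, control 2 and control 3. The mean was 66 ± 18.1 in KO and 73.7 ± 5.69 in control libraries (SD, n = 3 each; exact permutation p = 0.6, adjusted p = 0.75). The libraries held 334, 1668 and 163 Trav reads in KO and 1148, 723 and 553 in control libraries, in the same order as the detected segments. At a common 163 Trav reads, the expected number was 54.7, 55.0 and 49 in KO and 55.9, 53.1 and 54.9 in control libraries, so that the libraries other than KO 3 lay within 3 segments of each other. A Trav segment without a read could hold a share of up to 1.84% in KO 3, 0.898% in KO 1 and 0.180% in KO 2, and up to 0.261% to 0.543% in the controls, for counting error only. This limit is a share of reads. Of the 42 Trav segments without a read in KO 3, Trav8d-2, Trav14-2, Trav12-3, Trav19 and Trav6-2 took a share of summed FPKM above the KO 3 limit in at least 1 other library. By share of reads Trav6-2 stayed below it, with at most 1.74% (control 1).

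Most beta segments were seen in every library. Of 22, 21, 22 and 19 had a read in KO 1, KO 2 and KO 3, and 22, 21 and 21 in control 1, control 2 and control 3 (mean 20.7 ± 1.53 in KO and 21.3 ± 0.577 in control libraries, SD, n = 3 each; exact permutation p = 0.9, adjusted p = 0.9). At a common 265 Trbv reads, the expected number was 19.7, 19.3 and 19 in KO and 19.1, 18.4 and 19.5 in control libraries. A total of 60 members, 41 Trav and 19 Trbv, had a read in all 6 libraries, and 12 of these, all Trbv, had at least 10 reads in each.

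**Figure D4:**
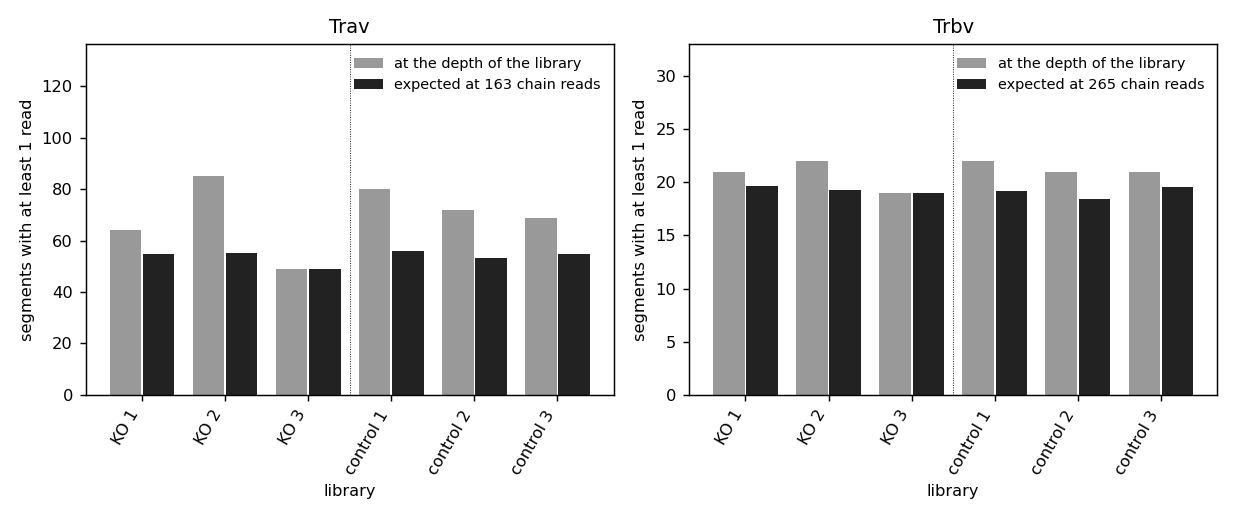
Number of Trav and Trbv segments with at least 1 read (y axes) in each library (x axis), at the depth of the library (grey) and expected at a common number of reads of the chain (black, 163 for Trav and 265 for Trbv). The spread of 49 to 85 Trav segments narrows to 49 to 55.9 at common reads.

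Evenness, the Shannon entropy of the shares divided by that of equal shares over all members of the chain, was high in both chains. For Trbv it was 0.903, 0.906 and 0.900 in KO 1, KO 2 and KO 3, and 0.908, 0.899 and 0.909 in control 1, control 2 and control 3. In each library 6 segments made up 50% of the summed FPKM, and the entropy equalled that of 16.1 to 16.6 equally used segments. The mean was 0.903 ± 0.00329 in KO and 0.905 ± 0.00555 in control libraries (SD, n = 3 each; exact permutation p = 0.6, adjusted p = 0.75). The sign of this difference turned with read shares in place of FPKM shares, and no direction can be given.

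Trav evenness was 0.857, 0.884 and 0.799 in KO 1, KO 2 and KO 3, and 0.883, 0.867 and 0.873 in control 1, control 2 and control 3. KO 3 was lowest, with 11 segments making up 50% of the summed FPKM, against 15 and 16 in the other libraries. The mean was 0.847 ± 0.0435 in KO and 0.874 ± 0.00803 in control libraries (SD, n = 3 each; exact permutation p = 0.5, adjusted p = 0.75), and the difference of -0.0276 was -0.0037 without KO 3. At a common 163 Trav reads, evenness was 0.832, 0.830 and 0.802 in KO and 0.834, 0.823 and 0.836 in control libraries. The 5 most used Trav segments held 24.9%, 23.4% and 29.6% in KO and 23.1%, 23.9% and 22.7% in control libraries.

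**Figure D5:**
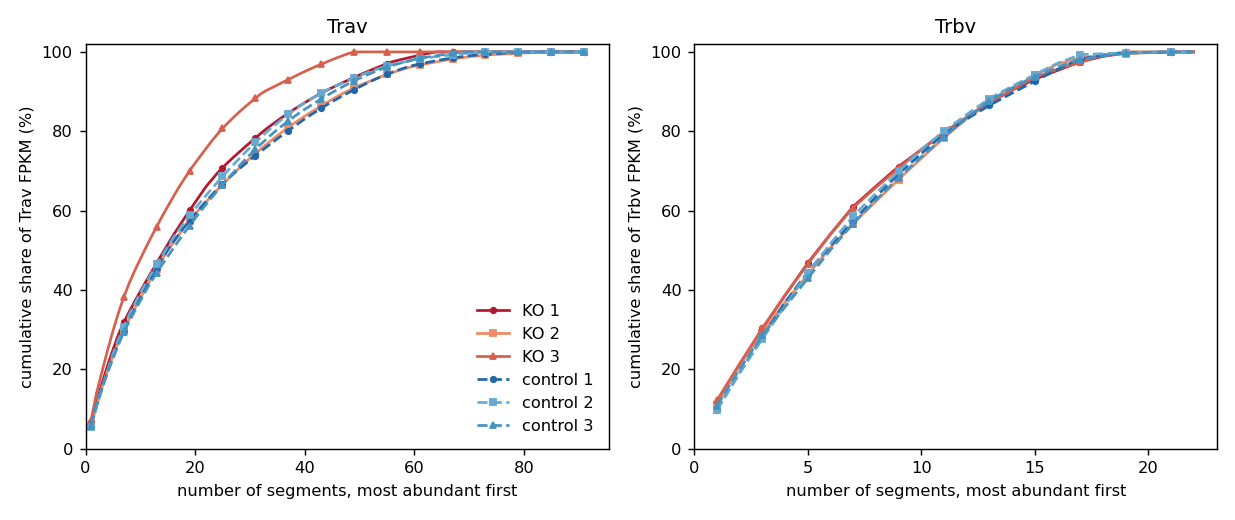
Cumulative share of summed FPKM in percent (y axis) against the number of segments, most used first (x axis), for Trav and Trbv, with 1 line per library. The 6 Trbv lines nearly coincide; among the Trav lines, KO 3 lies above the others and reaches 50% with 11 segments.

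Share profiles differed between the groups by little more than within them, which was inside the spread of the libraries. The Bray-Curtis distance between 2 libraries (0 for equal shares, 1 for no shared segment) averaged 0.150 ± 0.0470 over pairs of different groups and 0.144 ± 0.0308 over pairs of 1 group for Trbv (SD over pairs, which share libraries; exact permutation over libraries p = 0.8, adjusted p = 0.889). For Trav it averaged 0.311 ± 0.108 between and 0.293 ± 0.0940 within groups (exact permutation p = 0.5, adjusted p = 0.75). Trav pairs with KO 3, the library of fewest Trav reads (163), lay at 0.401 to 0.450 whichever the group. All other Trav pairs lay at 0.154 to 0.318. Distances were not computed at common reads, and the part of depth in them was not tested. The largest Trbv distance, 0.244, was between KO 3 and control 3, and the smallest, 0.0932, between KO 1 and KO 2. Over the Trbv segments of mean share over 1%, the coefficient of variation of the share over the libraries of a group had a median of 23.7% in KO and 19.97% in control libraries. For Trav the medians were 47.0% and 34.1%. KO 1 and KO 3 held the fewest Trbv reads (676 and 265), and the part of counting error in these medians was not tested.

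Other genes of the receptor were counted from fixed lists, and none passed the limma threshold. Of 8 constant region symbols listed, 4 matched (Trac, Trbc1, Trbc2 and Trdc). All 4 had higher estimates in KO, with a median log2 difference of 1.11. That median leaves out the gamma constant regions, which carry other symbols and were counted with the gamma delta T cell markers. For Tcrg-C1, Tcrg-C2 and Tcrg-C4 the log2 differences were 0.16, 0.03 and 0.26, and for Trdc 0.21. For Trbc1 and Trbc2 every KO library lay above every control, but the lowest KO value was close to control 1 in both (288 against 260 FPKM for Trbc1, 575 against 525 FPKM for Trbc2). All 4 signalling chains of the CD3 complex had higher estimates, with a median of 1.16. Both medians include control 2 and control 3, the libraries of low T cell marker levels. Cd3d had 172, 288 and 216 FPKM in KO and 153, 77.3 and 48.4 FPKM in control libraries, and was the only 1 of the 4 whose groups did not overlap. For Cd3e, Cd3g and Cd247, control 1 (57.5, 96.0 and 37.2 FPKM) lay above KO 1 (43.3, 79.2 and 31.8 FPKM) and KO 3 (33.4, 85.9 and 32.6 FPKM). Of 8 recombination genes tested, 7 had higher and 1 lower estimates, and Rag1, an enzyme that starts V(D)J joining, was at most 0.09 FPKM in any library. Dntt, which adds bases at the joints, had 2.06, 2.08 and 2.66 FPKM in KO and 0.913, 0.0626 and 0.25 FPKM in control libraries. Dntt passed the filter only through the KO libraries. Its direction, counted among the 7 higher estimates, is therefore no test of a difference.

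Of 33 alpha joining segments tested, 17 had higher and 16 lower estimates, and of 12 beta joining segments 6 had higher and 6 lower. Both beta diversity segments and 1 of 2 delta V segments tested had higher estimates. Trgv2, the only gamma V segment whose symbol begins with Trgv, had a lower estimate. Gamma V segments with symbols of another form were not counted here. Traj16 had 101, 1 and 86 reads in KO 1, KO 2 and KO 3, and 19, 1 and 4 in control 1, control 2 and control 3, so that KO 1 and KO 3 stood apart here as for the Trav5d-4 and Trav5n-4 pair. Immunoglobulin V segments, which B cells express, had lower estimates in KO for 95 of 124 tested. Their summed FPKM was 683, 3264 and 497 in KO and 7245, 399 and 556 in control libraries, high in KO 2 and control 1, and the groups overlapped.

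Across the 6 libraries, the 5 genes whose log2(FPKM + 1) followed the log2 sum of Trbv most closely were Tapbpl, Zfp667, Prkch, Amigo2 and Nit1, with Pearson r of 0.987 to 0.996. This is a description of libraries that also differ in depth and marker content. Prkch, a protein kinase C, had 27.6, 50.9 and 15.4 FPKM in KO and 31.0, 14.3 and 11.9 FPKM in control libraries.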

How the data were processed

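RNA-seq values of 3 KO and 3 control libraries of splenic CD8+ T cells were grouped by the library titles. Per the labels' protocols, RNA was taken with Trizol and an NEBNext Ultra kit gave the libraries. The deposited values are FPKM, 1 per gene and library, as read from the values. Tools and build listed, without roles, in the submitters' processing notes are mm8, HTSeq 0.6.0, HISAT2 (version 2) and Bowtie2 2.2.3. What is not given in the sources used here is the annotation, the strand setting and the handling of reads that match several segments. Of 35458 identifiers, 35313 matched GENCODE M21, the source of symbols, exon lengths and sequences. As builds differ, no coordinates are given.

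FPKM times summed exon length and the library total gave implied reads, whole for 100% of member values and for 92.1% to 93.4% of all values under 200 reads (tolerance 0.02). 1 read in a segment of the median length, 378 bases, was worth 0.773, 0.180 and 0.880 FPKM in KO 1, KO 2 and KO 3, and 0.223, 0.176 and 0.176 FPKM in the controls, so single segments in KO 1 and KO 3 are the least precise. Intervals are 95% Wilson intervals and, like the 3-read floors, cover counting error only.

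Genes that reached 1 FPKM in 3 or more libraries were tested on log2(FPKM + 1), a scale that understates changes of low genes, with limma 3.58.1 (R 4.3.3), an intensity trend and Benjamini-Hochberg adjustment over 13956 genes at 0.05. The 10 summary values had exact two-sided permutation tests over libraries. The limma step was tested on simulated data. Shares had no test. Expected numbers at common reads came from exact hypergeometric rarefaction. Alternatives changed the pseudocount, filter, scaling, evenness measure, and libraries left out; the closing section gives their effect. Segments were named by a rule: the 8 highest mean shares per chain, up to 4 per direction with non-overlapping shares, members past the limma threshold and segments of invariant receptors; not all are reported. The 7 members of non-overlapping FPKM (2 of them not tested), Trbv2, Trbv13-1, Trbv21, Trbv4, Trbv5, Traj16, the Trav5 pair and the Trav segments without a read in KO 3 were added after their values were seen. The members, lists and rules were chosen with earlier results of these data known. Software was scipy 1.17.1, pandas 2.3.3, numpy 2.4.6, matplotlib 3.10.9 and Python 3.11.15.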

Additional observations from a re-analysis of the deposited data

How the results depend on the processing

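The summed levels changed direction without control replicates 2 and 3, the libraries of high neutrophil markers: the log2 difference was -0.20 for Trav and -0.18 for Trbv, and the part of marker content was not tested. Evenness and detection had no stable direction. With segments of at least 1 FPKM only, the KO minus control difference was 0.00158 for Trav evenness, 0.00234 for Trbv evenness, 3.33 for detected Trav and 1.33 for detected Trbv segments. Without KO replicates 1 and 3 the same differences were 0.00974, 0.000975, 11.3 and 0.667. Trbv evenness also turned to 0.00014 with read shares, 0.196 with the inverse Simpson number and 0.0038 at a common number of reads (added after seeing the data), and detected Trbv segments to 0.295 at common reads. The cause of these changes was not tested.

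Leaving out 1 library at a time gave ranges of 0.31 to 1.01 for the log2 Trav sum, 0.25 to 1.16 for the log2 Trbv sum, -17.2 to 0.833 for detected Trav and -1.33 to 0.167 for detected Trbv segments. The distance between minus within groups ranged over -0.0289 to 0.104 for Trav and -0.00729 to 0.02995 for Trbv. Genes past the limma threshold numbered 0 to 1821, with 1821 without KO 2 (1687 higher, 134 lower), 363 without control 1 (146 higher, 217 lower) and 0 for the other 4. Segments of non-overlapping share numbered 11 with all libraries, 9 with read shares, 42 without control replicates 2 and 3 and 49 without KO replicates 1 and 3, by construction as fewer libraries are compared. Both ratios of V segments to constant regions kept their direction under each alternative run.

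The median log2 difference of the members tested was 0.06 with quantile normalization, which moved the median of all genes tested to -0.12, beside 0.33 and 0.10 without it. With the replicate number as a block, limma called 0 genes (1692 at an unadjusted p under 0.05) and the summary differences stayed at 0.61 (Trav sum), 0.66 (Trbv sum), -0.38 and -0.78 (ratios), -0.0276 and -0.00216 (evenness) and -7.67 and -0.667 (detection), with 0.25 as the smallest p possible. Same-numbered libraries of the 2 groups had deviations correlated at 0.112, 0.0202 and 0.0175, so the numbers were not taken to pair them. The block for the distances and omission of both control 2 and control 3, or of both KO 1 and KO 3, for them were not run.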
